A study of Homo sapiens with 8 samples.

Results

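The 1q21 block is a window of 7.4 Mb on the long arm of human chromosome 1, from 142600000 to 150000000 on build hg19, and its members were all p53 peaks of the deposited lists that overlapped it. There were 658 such peaks of 97582 in the 4 lists, namely 215 and 150 in the lists of Dox replicates 1 and 2 and 96 and 197 in those of PBS replicates 1 and 2. The lists come from chromatin immunoprecipitation with sequencing (ChIP-seq) of p53, with the antibody clone 1C12, in 293T cells. This line was derived from human embryonic kidney and carries the large T antigen of simian virus, a protein that binds p53, so every group shares that background. The Dox group received doxorubicin at 0.5 µg/ml for 24 h, and the PBS group received the vehicle for 24 h. Each group had 2 libraries, replicate number 1 from passage 3 and number 2 from passage 5, so that number and passage cannot be told apart. Beyond the passage nothing is said of separate cultures, so each p-value speaks only of these libraries. Where 4 values are given in a row, they stand in the order Dox replicates 1 and 2, then PBS replicates 1 and 2.

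The window is known for segmental duplications, long stretches of DNA that occur in several near-identical copies. They carry the NBPF genes, a family that multiplied in primates, and genes and pseudogenes of U1, the small nuclear RNA that recognises the 5′ splice site of messenger RNA precursors. U1 genes are transcribed by RNA polymerase II from short promoters of their own kind, and a group of them also lies on the short arm of chromosome 1. The protein p53 is a transcription factor that binds DNA as a tetramer and activates genes of cell cycle arrest and apoptosis. In RefSeq's gene order on GRCh38.p14, 29 of the 43 U1 entries of chromosome 1 had an NBPF gene within 10 places. The count covers the whole chromosome and not the block alone, and the share over all its genes was not computed. GRCh38.p14 is not the build of the peak lists. No peak was therefore assigned to a gene, no sequence under a peak was read, and sites are given by position. Reads from near-identical copies can be placed on any of them, no source used here says how the authors treated such reads, and the part this played was not tested.

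A called peak is a stretch in which the peak caller MACS2 found more ChIP reads than in its local background. Its fold enrichment is the height at the summit over that background, and its p and q values measure the same excess without and with adjustment for multiple testing. Lists were called at p under 0.05 and held 11304 to 46658 peaks, and folds and p of different lists are on scales of their own. Peaks were therefore compared by their rank or percentile by p within their own list, where rank 1 is the smallest p and the percentile 100 is the best peak. Peaks of the 4 lists that shared at least 1 bp were merged into sites. Read depth is not given in the lists.

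Peaks of the block were stronger by p, more often wide and more often shared between libraries than peaks on the rest of chromosome 1, in each of the 4 libraries when all called peaks were compared. Among peaks with q of at most 0.05 alone, PBS replicate 1 went the other way in percentile (-3.29 points) and in recurrence (-9.90 percentage points). A q of at most 0.05 was reached by 15.8% of block peaks in Dox replicate 1 (34 of 215, 95% Wilson interval 11.5 to 21.3 per cent), against 4.61% on the rest of the chromosome and 3.65% of the whole list. In Dox replicate 2 the share was 18.7% (28 of 150, 13.2 to 25.7), against 5.93% and 4.84%. In PBS replicate 1 it was 22.9% (22 of 96, 15.6 to 32.3), against 4.60% and 2.56%. In PBS replicate 2 it was 20.3% (40 of 197, 15.3 to 26.5), against 7.06% and 5.84%. The block lay above the rest in both conditions, and the block shares did not overlap those of the rest. The mean excess was 13.9 ± 3.09 percentage points (SD, n = 4 libraries; two-sided exact sign-flip permutation test over libraries, p = 0.125, adjusted p = 0.167 over 16 tests). With 4 libraries no sign-flip test can give a p below 0.125, so none of these comparisons could pass 0.05. That p of 0.125 arises whenever all 4 differences share a sign, whatever their spread. Wilson intervals cover counting error only.

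The median block peak stood at percentile 68.3 of its list in the first Dox library and 64.0 in the second, and at 79.5 and 58.4 in the PBS libraries. The medians on the rest of the chromosome lay between 46.1 and 48.9, below each block median. The excess was 20.1 ± 8.86 percentile points (SD, n = 4; exact sign-flip p = 0.125, adjusted p = 0.167). Ranked by fold in place of p it was 10.4 ± 9.45 points, higher in 3 of 4 libraries (exact sign-flip p = 0.25, adjusted p = 0.286), with Dox replicate 2 at -1.05. At the very top of the lists the block held 5, 7, 8 and 8 of the 100 best peaks of Dox replicates 1 and 2 and PBS replicates 1 and 2. These were 13.9%, 21.2%, 21.6% and 22.2% of the chromosome 1 peaks in the top 100, while the block held 3.70% to 5.85% of all chromosome 1 peaks.

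**Figure D1:**
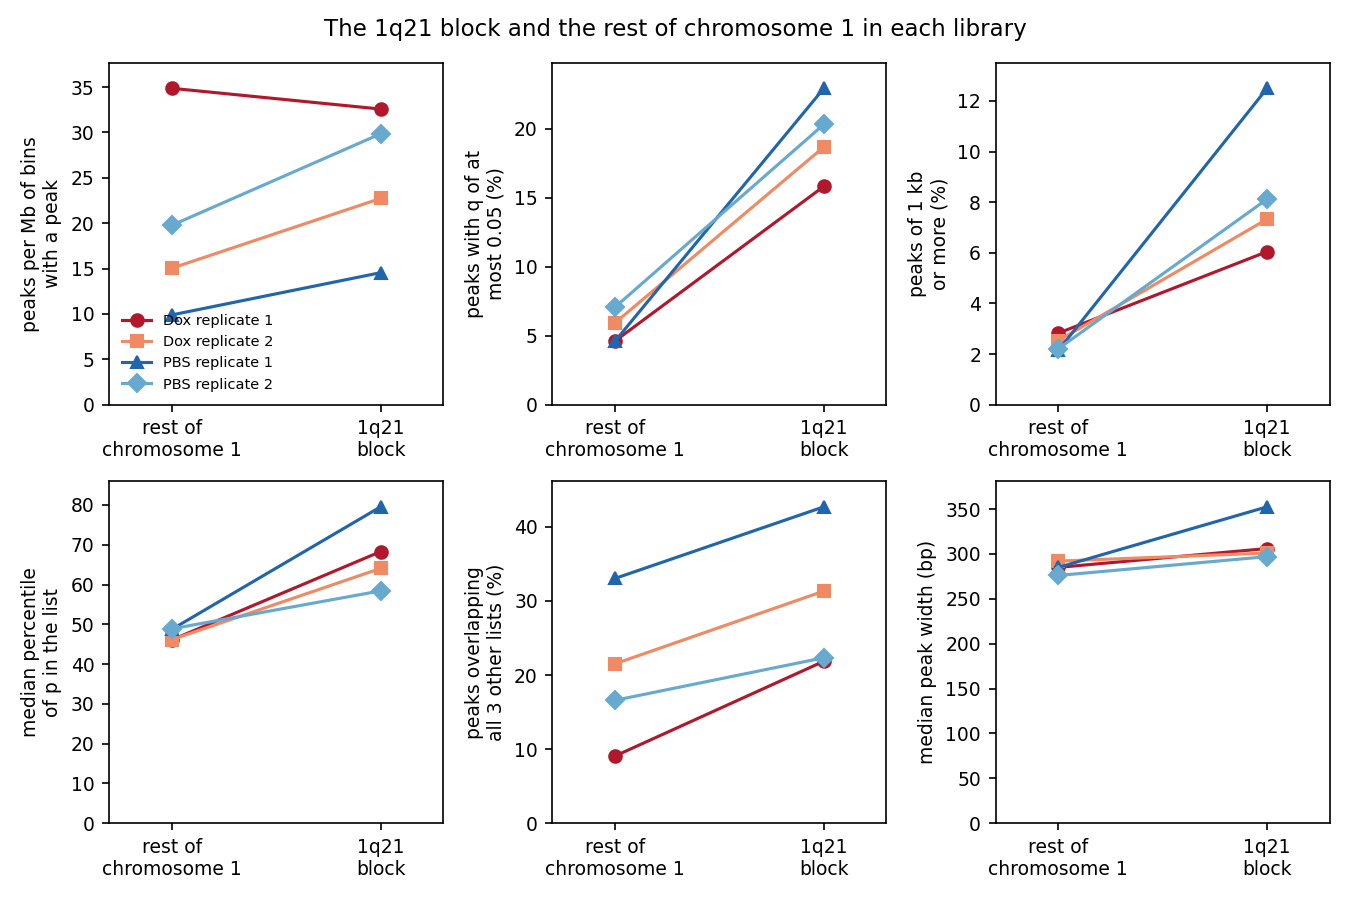
Each panel plots 1 measure for the peaks on the rest of chromosome 1 (left) and in the 1q21 block (right), with a line per library; axes start at 0, and the first panel is in peaks per Mb of 100 kb bins that hold a peak of any list. Lines go up from left to right in all 4 libraries in every panel except the density of Dox replicate 1, which goes from 34.9 to 32.6 peaks per Mb.

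Peaks of 1 kb or more made up 6.05%, 7.33%, 12.5% and 8.12% of block peaks in Dox replicates 1 and 2 and PBS replicates 1 and 2. On the rest of the chromosome the shares were 2.83%, 2.53%, 2.14% and 2.21%, and over the whole lists 2.3%, 1.77%, 1.75% and 1.95%. The excess of 6.07 ± 3.06 percentage points had the same sign in 4 of 4 libraries (exact sign-flip p = 0.125, adjusted p = 0.167). The typical peak was only slightly wider: the median width was 306, 301, 352.5 and 297 bp in the block and 285, 292, 285 and 276 bp outside it. That difference of 29.6 ± 25.9 bp (exact sign-flip p = 0.125, adjusted p = 0.167) became 17.0 bp without PBS replicate 1. Among peaks with q of at most 0.05 it was larger, 117 ± 45.2 bp, with block medians of 715.5 to 745.0 bp against 588.0 to 659.5 bp. The difference in width was thus larger among the stronger peaks than over all peaks.

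The number of peaks per Mb set the block apart less than their strength. Density was taken over bins with a peak, because the build has unsequenced gaps in the block. Bins of 100 kb with a peak of any list covered 66 of 74 bins of the block (89.2%) and 1604 of 2418 on the rest of the span from the first to the last peak (66.3%), which includes the centromere. Over these bins the density was 32.6, 22.7, 14.5 and 29.8 peaks per Mb in the block and 34.9, 15.0, 9.89 and 19.8 outside it. Over these bins Dox replicate 1, the longest list, was the library without an excess. The mean log2 ratio was 0.41 ± 0.34 (SD, n = 4; exact sign-flip p = 0.25, adjusted p = 0.286). With the full lengths, unsequenced gaps included, in place of the bins with a peak it was 0.84. Dox replicate 1 then also had an excess, with 29.1 peaks per Mb in the block and 23.1 outside it. Counting just the peaks that reached a q of 0.05 or less, there were 5.15, 4.24, 3.33 and 6.06 per Mb in the block and 1.61, 0.892, 0.455 and 1.40 outside it, higher in 4 of 4 libraries (mean difference 3.61 ± 0.757 per Mb; exact sign-flip p = 0.125, adjusted p = 0.167).

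Within the block the peaks were unevenly spread. Taking steps of 1 Mb from the start, the 4 lists together held 85, 71, 135, 44, 50, 101 and 74 peaks, and the last 0.4 Mb, from 149.6 to 150 Mb, held 98. That last stretch had 245 peaks per Mb over the 4 lists, against 44 to 135 in the steps before it. The steps from 145.6 to 147.6 Mb were the sparsest. No list had a peak from 146044637 to 146363570, a stretch of 319 kb, and 17 stretches without a peak were longer than 100 kb. The build has unsequenced gaps in the block, where no peak can be called. Which of these stretches hold such gaps was not checked, and the counts per step were not corrected for them. Stretches over 100 kb were 4.53% of the distances between neighbouring sites in the block and 5.47% on the rest of the chromosome. These are shares of the distances, which depend on how close the sites lie, and not counts per Mb. The median distance between neighbouring sites was 5.55 kb in the block and 6.11 kb outside it.

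**Figure D2:**
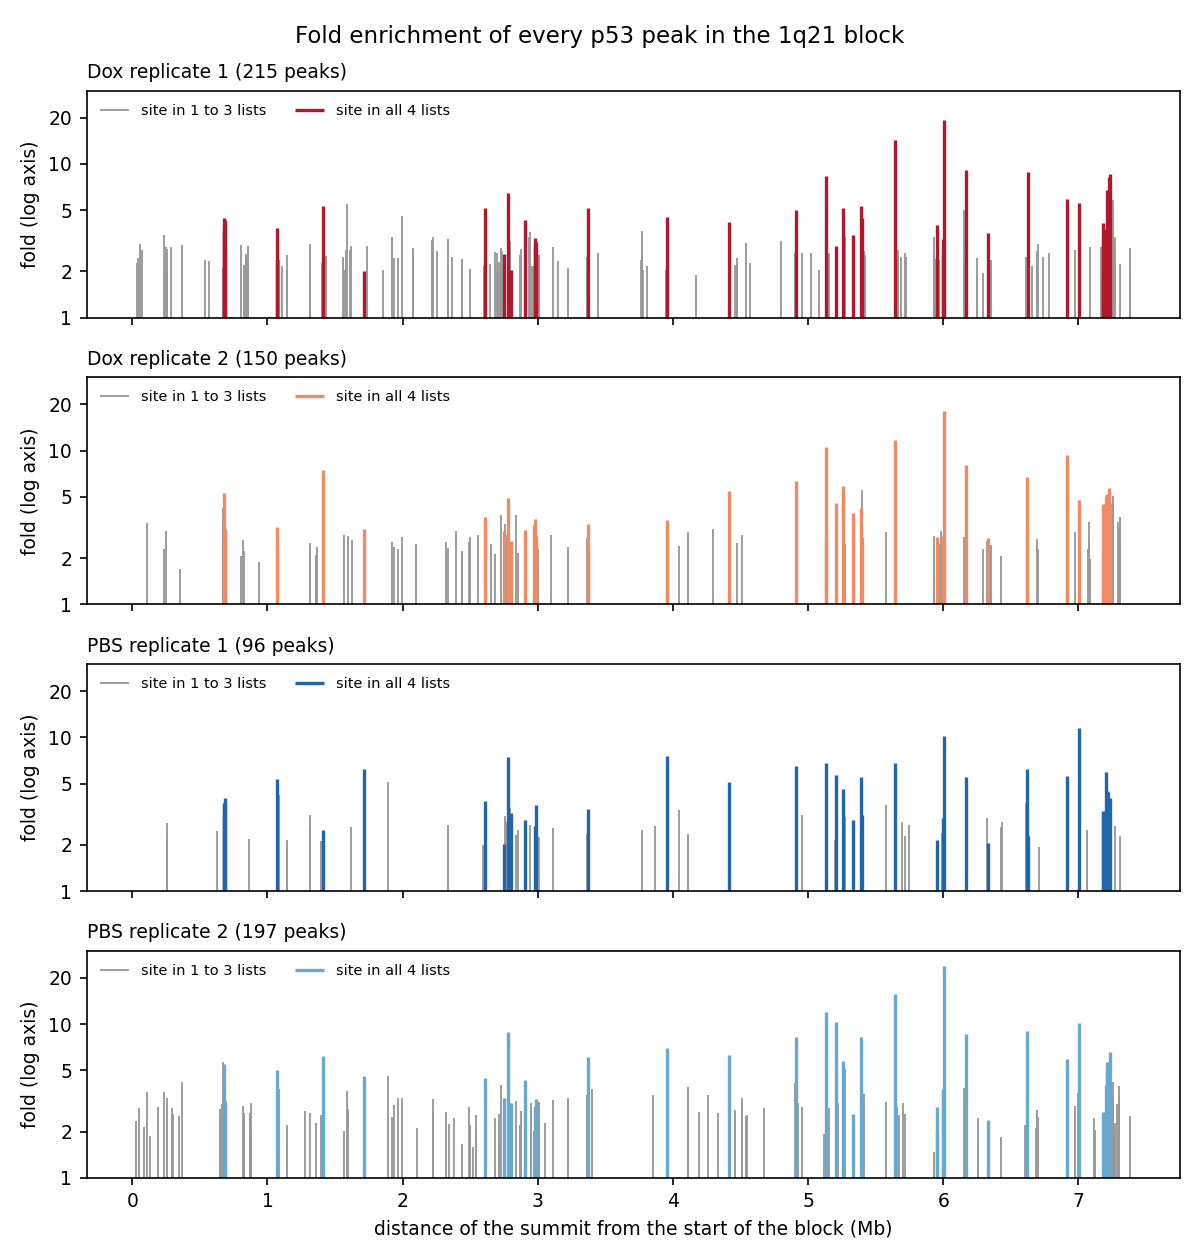
Each panel shows 1 library, and each line is a peak, placed by the distance of its summit from the start of the block (Mb) and as high as its fold enrichment over the caller's background (log axis); coloured lines belong to sites with a peak in all 4 lists. The 2 tallest lines in both Dox libraries and in PBS replicate 2 lie between 5 and 7 Mb, and the coloured lines crowd together near 0.7 Mb and beyond 7 Mb.

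The 658 peaks merged into 376 sites, of which 40 (10.6%) had a peak in all 4 lists. The share was 6.11% on the rest of chromosome 1 and 6.01% over the genome. In the short-arm window and the stretch after the block, both described further on, it was 7.73% and 8.48%. Of the block peaks, 21.9% in Dox replicate 1 (47 of 215) overlapped a peak in all 3 other lists, against 9.07% on the rest of the chromosome and 8.25% of the whole list. In Dox replicate 2 it was 31.3% (47 of 150), against 21.5% and 22.8%. In PBS replicate 1 it was 42.7% (41 of 96), against 33.0% and 33.5%. In PBS replicate 2 it was 22.3% (44 of 197), against 16.6% and 16.7%. The mean excess over the rest of the chromosome was 9.51 ± 2.89 percentage points, positive in 4 of 4 libraries (exact sign-flip p = 0.125, adjusted p = 0.167).

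Sites that reached q of at most 0.05 in all 4 libraries numbered 15 in the block, 37.5% of its sites in all 4 lists, against 10.4% of such sites on the rest of chromosome 1 and 5.36% over the genome. In the window on the short arm described further on, 4 of 14 sites in all 4 lists did so (28.6%). These 15 were 22.1% of the 68 on chromosome 1 and 7.28% of the 206 in the genome, while the block held 4.31% and 0.589% of all sites. Of the 40 sites in all 4 lists, 21 (52.5%) were 1 kb wide or more after merging, against 39.2% on the rest of the chromosome and 36.5% over the genome. Their median width was 1128 bp, and that on the rest of the chromosome 854.5 bp. In the short-arm window 57.1% were that wide, with a median of 1229.5 bp, so in width its sites did not lie below those of the block.

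The tables of peak pairs matched between replicates gave the same order of shares. The header names an irreproducible discovery rate (IDR) for every pair, a q-value over pairs. It was at most 0.05 for 51 of 74 Dox pairs in the block (68.9%, 95% Wilson interval 57.7 to 78.3 per cent), against 37.0% on the rest of chromosome 1 and 27.5% of the whole table. For PBS it was 30 of 58 pairs (51.7%, 39.2 to 64.1), against 17.0% and 15%. The IDR is computed from the same peaks, so these shares are not separate support, and with 1 table per condition they carry no test.

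The 10 leading sites were picked by the mean rank over the 4 lists from those with a peak in all 4, so their strength follows from that choice. The first, from 148603540 to 148605108, ranked 5 and 6 in Dox replicates 1 and 2 and 8 and 2 in PBS replicates 1 and 2. Its folds were 19.4, 18.1, 10.3 and 23.9 in the same order, and its peaks were 1554, 1569, 1163 and 1279 bp wide. It lay among the 10 best peaks of every list, in both conditions.

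The site from 148241432 to 148242667 ranked 10, 10, 30 and 9, with folds of 14.2, 11.7, 6.83 and 15.8. Its peak width varied little between libraries, at 1194, 1203, 1119 and 1152 bp. The widest of the leading sites, from 149222054 to 149225034, ranked 26, 27, 29 and 23, with folds of 8.90, 6.78, 6.19 and 8.97. Its ranks spanned 6 places, as did those of the first site. The site from 147735035 to 147736626 ranked 56, 29, 41 and 35, with folds of 8.39, 10.6, 6.77 and 12.1. In these 4 sites the fold was lowest in PBS replicate 1, though folds of different lists are on scales of their own. At the first 3 of them that library, the shortest list, also had the worst rank.

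The other leading sites were from 143280271 to 143280710, 149605358 to 149606543, 145382355 to 145383818, 148765495 to 148767159, 143283606 to 143284103 and 149513192 to 149513986. Their ranks ran from 22 to 305 over the 4 lists. Each of the 10 leading sites reached q of at most 0.05 in all 4 libraries. Of the 10, 7 were 1 kb wide or more, and 8 lay beyond 145 Mb. The best site of the step from 143.6 to 144.6 Mb, from 144010401 to 144011185, ranked 114, 36 and 119 in the Dox libraries and PBS replicate 2, but 1021 in PBS replicate 1. In the step from 145.6 to 146.6 Mb the best site, from 146555191 to 146556994, ranked 1017, 830, 57 and 114. In the step from 146.6 to 147.6 Mb it was the narrow site from 147012736 to 147013216, which ranked 479, 210, 223 and 212.

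**Figure D3:**
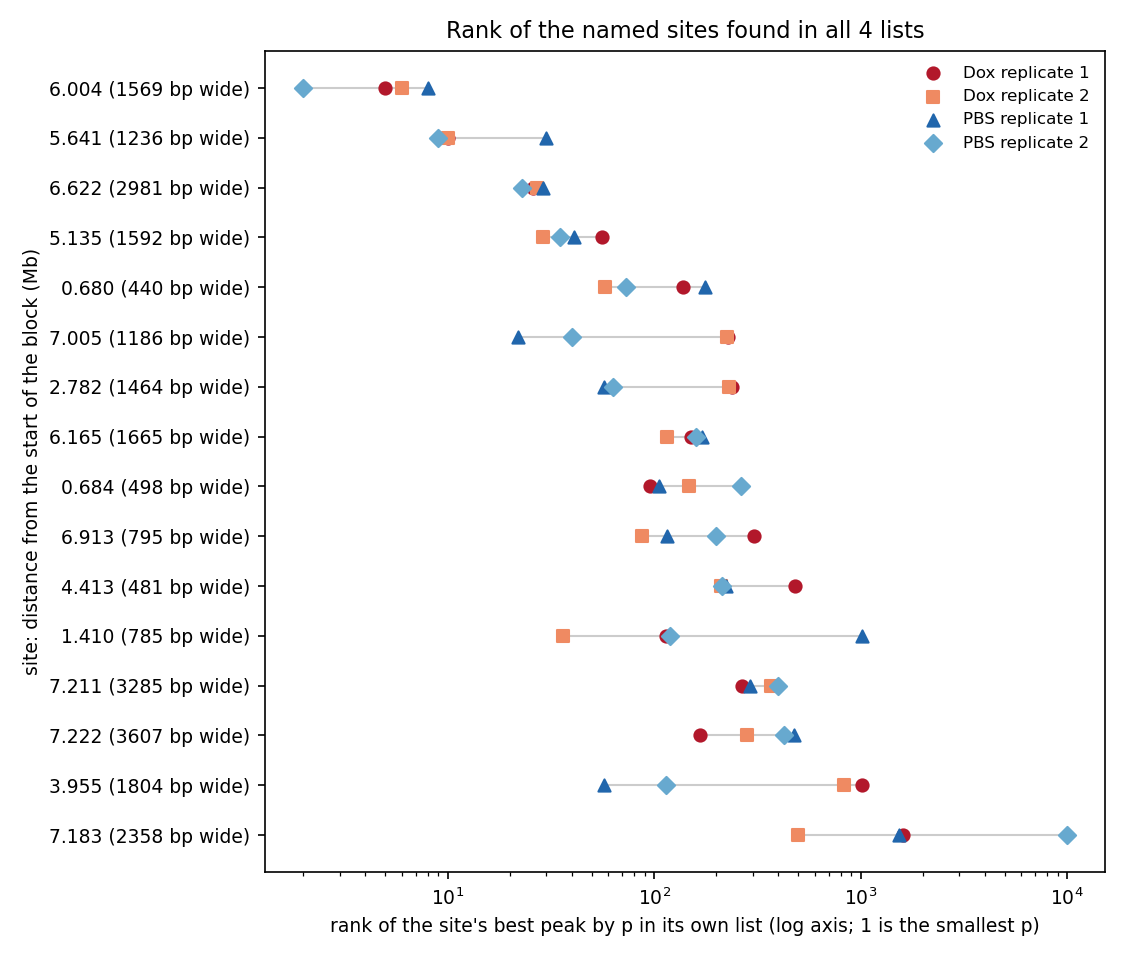
Each row is a named site with a peak in all 4 lists, labelled by its distance from the start of the block in Mb and its merged width, and each symbol is the rank by p of its best peak in 1 library (log axis, rank 1 is the smallest p). The top 4 rows keep all symbols between rank 2 and 56. In the rows at 7.005, 2.782 and 3.955 Mb both PBS symbols lie left of both Dox symbols. The rows at 1.410, 6.165 and 7.222 Mb have both Dox symbols left of both PBS symbols.

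A pair of runs of close sites, each with 5 sites in all 4 lists, differed in kind. They were taken after the values had been seen, as neighbours under 10 kb apart. The proximal run, from 143265378 to 143284103, held 11 sites and 30 peaks in 18.7 kb. Its peaks had median widths of 298, 285, 303.5 and 264 bp and a maximum of 730 bp. These medians were near those of all peaks on the rest of the chromosome, 276 to 292 bp. They were narrow beside block peaks with q of at most 0.05, whose medians were 715.5 to 745 bp. Peaks of this run ranked high by p and lower by fold: the median percentile by p was 99.2, 96.2, 98.4 and 98.4, and by fold 91.0, 66.5, 91.0 and 68.0. The strongest site of the run, from 143280271 to 143280710, ranked 138, 58, 177 and 73 with folds of 4.02, 5.31, 3.08 and 5.53. The distal site from 148765495 to 148767159 ranked 151, 115, 171 and 159 with folds of 9.12, 8.01, 5.53 and 8.64. At like ranks the fold of the narrow site was thus lower in each library.

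The distal run, from 149802371 to 149833322, held 14 sites and 48 peaks in 31.0 kb. Its peaks were wide, with medians of 568, 544.5, 537 and 516 bp in Dox replicates 1 and 2 and PBS replicates 1 and 2. It included the widest sites of the block, from 149811398 to 149814682 (3285 bp) and from 149822058 to 149825664 (3607 bp), each merged from 10 peaks. The first ranked 266, 368, 291 and 397 and the second 166, 283, 476 and 425, so neither was among the 100 best peaks of any list. The widest single peak of the block, 3102 bp in PBS replicate 1, lay in the second site and did not reach a q of 0.05. The other 2 sites among the 5 widest beside the leading one at 149.22 Mb lay close by, from 149782944 to 149785301 (2358 bp) and from 149857003 to 149860071 (3069 bp). The latter had no peak in PBS replicate 1. Over the last 0.4 Mb the lists held 25, 29, 14 and 30 peaks.

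**Figure D4:**
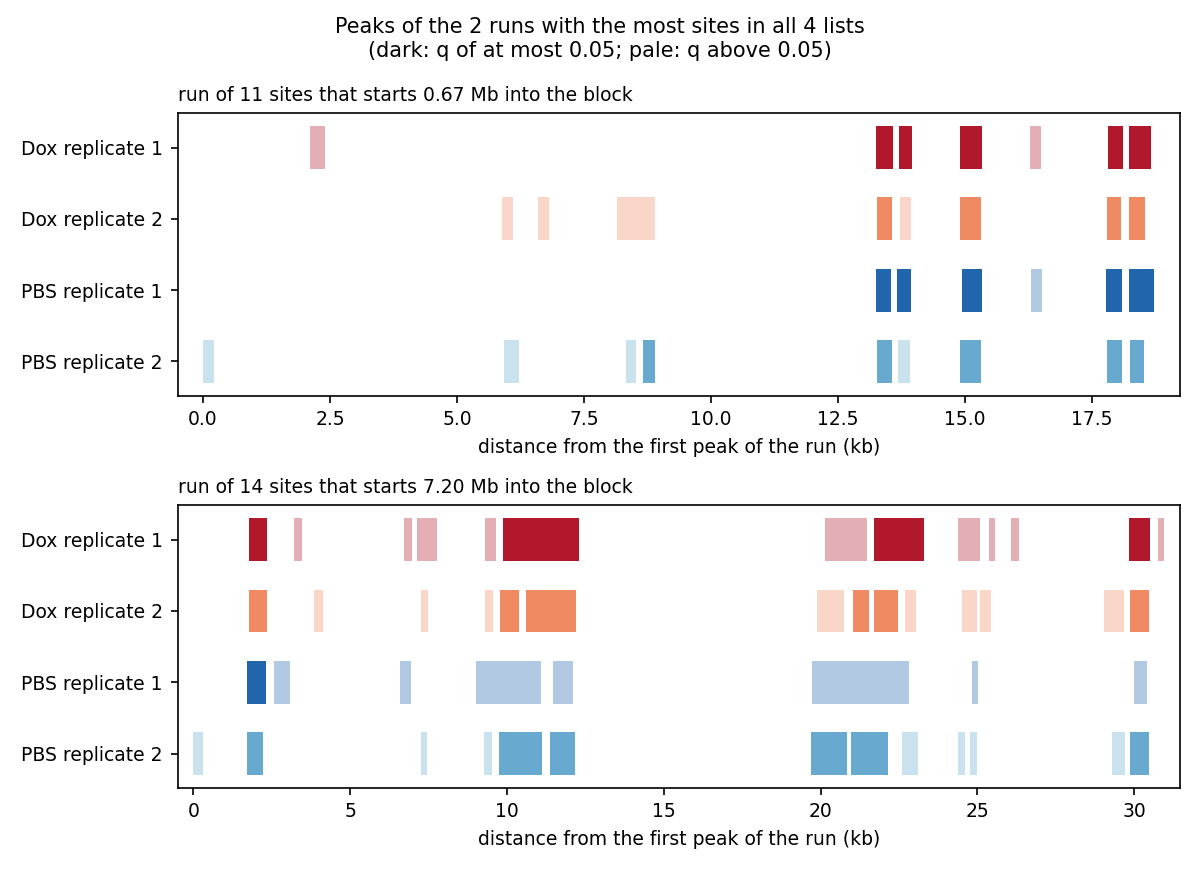
Bars are called peaks of each library, placed by the distance from the first peak of the run (kb), dark where q was at most 0.05 and pale where it was above. In the upper run the dark bars are narrow and, apart from 1 in PBS replicate 2 near 9 kb, lie between 13 and 19 kb in all 4 libraries; in the lower run wide bars lie near 10 and 22 kb, and PBS replicate 1 has a single dark bar.

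A pair of other stretches of chromosome 1 served for comparison. A window from 16000000 to 18000000 on the short arm was taken as a place thought, from general knowledge, to hold U1 genes and NBPF1, which was not checked against an annotation of this build. There 5 sites ranked among the 100 best peaks of at least 3 lists. The first of them, from 16838729 to 16841047, ranked 60, 20, 4 and 28 and was 2319 bp wide. The next 3, which start at 17066497, 17230997 and 17222305, ranked between 11 and 63 and were 1387 to 2811 bp wide. The last, from 16990883 to 16993996, ranked 38, 35 and 24 in Dox replicate 1 and PBS replicates 1 and 2, but 844 in Dox replicate 2. Both places thus held wide sites at the top of the lists. The share of peaks with q of at most 0.05 was 5.88%, 10.9%, 13.9% and 14.5% in the short-arm window, and the block exceeded it by 8.12 ± 1.81 percentage points, in 4 of 4 libraries (exact sign-flip p = 0.125, adjusted p = 0.167). The share of peaks of 1 kb or more in the block minus that in the short-arm window was -0.620 ± 1.54 percentage points, positive in 1 of 4 libraries (exact sign-flip p = 0.5, adjusted p = 0.533). Peaks in the top 100 were sparser in the block, by a difference of -1.43 ± 0.315 per Mb that had the same sign in 4 of 4 libraries (exact sign-flip p = 0.125, adjusted p = 0.167).

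The stretch of equal length directly after the block, up to 157400000, differed more in the share of peaks with q of at most 0.05. It held 615, 274, 168 and 329 peaks, more than the block in each library. Of these 2.11%, 1.46%, 1.79% and 5.78% reached q of at most 0.05, and the block exceeded it by 16.6 ± 3.35 percentage points (exact sign-flip p = 0.125, adjusted p = 0.167; higher in 4 of 4 libraries). It had 1, 0, 1 and 0 of the 100 best peaks. No site there reached q of at most 0.05 in all 4 libraries, of 72 in all 4 lists. The sites at the edges of the window were weak: the last before it (2.82-fold) and the first after it (2.42-fold) were each in 1 list, as were the first inside (2.36-fold) and the last inside (2.84-fold).

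Between Dox and PBS the block took no larger a share of the lists than the spread between replicates. It held 0.461% and 0.901% of the peaks of Dox replicates 1 and 2 and 0.849% and 0.857% of those of PBS replicates 1 and 2. The Dox mean was 0.681 ± 0.312% and the PBS mean 0.853 ± 0.00572% (SD, n = 2 per condition; exact permutation test, two-sided p = 1, where 2 against 2 allow no p below 0.33). Dox replicate 1 alone was low, and without it the difference was 0.0480 in place of -0.172 percentage points. Within replicate number 1 the difference was -0.388 and within number 2 it was 0.0440 percentage points.

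Single sites were set in order by rank. Of the 40 sites in all 4 lists, 13 (32.5%) had both PBS ranks ahead of both Dox ranks, against 17.8% over the genome, and 5 (12.5%) had both Dox ranks ahead, against 14.1%. Ranks run deeper in longer lists, so percentiles were compared too, and then 7 (17.5%) had PBS ahead, against 5.96%, and 11 (27.5%) had Dox ahead, against 26.8%. The order thus depended on the scale. By rank PBS was also ahead at 28.6% of such sites in the short-arm window (4 of 14) and 25% in the stretch after the block (18 of 72). By percentile these shares were 7.14% and 11.1%. In the block 7 sites (17.5%) had PBS ahead on both scales, against 5.42% over the genome. For Dox ahead on both scales it was 4 (10%), against 12.6%. The counts are small and carry no test.

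Of those 7 sites 5 were 1 kb wide or more. The site from 149605358 to 149606543 ranked 228 and 225 in the Dox libraries and 22 and 40 in the PBS libraries, with folds of 5.59, 4.75, 11.6 and 10.2. The site from 147806193 to 147807771 ranked 2152 and 482 in Dox and 98 and 62 in PBS, with folds of 2.92, 4.55, 5.67 and 10.3. The others, named after their values were seen, start at 143672459, 144310640, 145398825, 146555191 and 147510041. All 7 were picked from sites with a peak in every list, so a peak in both conditions followed from that choice. They therefore cannot show whether any site was specific to PBS. With Dox ahead on both scales were sites that start at 144010401, 148555633, 148928047 and 149822058. The second of these ranked 1633 and 3234 in Dox and 8691 and 5057 in PBS.

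Sites called in both libraries of 1 condition and in neither of the other were few and mostly weak. There were 9 for Dox (2.39% of block sites, against 3.11% over the genome) and 4 for PBS (1.06%, against 0.928%), both near the genome's shares. The PBS site from 144491007 to 144491605 stood out, at ranks 223 and 430 with folds of 5.16 and 4.59, and its q was 0.05 or less in both libraries. The best Dox site, from 145209792 to 145210123, ranked 1701 and 2639 with folds of 3.43 and 2.73, and reached that q in 1 library. The other named Dox sites start at 143403399, 148532522, 149300052 and 149684108, with folds of 1.97 to 2.99. The other PBS sites start at 145610604, 147553552 and 148320633, with folds of 2.24 to 3.11. None of these 7 reached q of at most 0.05 in any library.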

How the data were processed

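The 4 ChIP libraries of the 8 samples were analysed, and the 4 input samples were not used here. BWA, MACS2 and the build hg19 are named in the submitters' processing notes, without a version or a filter. For each ChIP library the authors deposited 1 peak list with the fold enrichment (a ratio) and the −log10 p-value and −log10 q-value of each peak. The deposited tables of matched replicate pairs give a value for each pair that the file headers name IDR. The calling threshold, p under 0.05, is part of the peak names in the lists. No source used here says how reads of duplicated sequence were placed.

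From these, window membership, overlaps (at least 1 bp), merged sites, within-list ranks and 100 kb bins were computed. Block and rest were compared within each library, and the differences tested over libraries by exact sign flips, with Benjamini-Hochberg adjustment over 16 tests. Read depth is unknown. The steps were tested on simulated lists. Positions count from 1. The members and lists were chosen with earlier results of these data known. Named sites are the 10 with the best mean rank in all 4 lists, the 5 widest, and the best of each 1 Mb step. Also named are the best 5 sites called in both Dox lists and in neither PBS list. For sites called in both PBS lists and in neither Dox list there were only 4, and all are named. Others are said to be named after their values were seen. A genome of the build was not used here, so the planned gene lists and motif search were left out. Same-numbered libraries share a passage number; over 3840 sites in all 4 lists the replicate differences in Dox and PBS correlated at r = 0.07. Computation was in Python 3.11.15 with pandas 2.3.3, numpy 2.4.6 and scipy 1.17.1, and figures were drawn with matplotlib 3.10.9.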

Additional observations from a re-analysis of the deposited data

Results flagged for a closer look

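For 4 measures of the block, Dox minus PBS had one sign within replicate number 1 and the other within number 2. Each condition has a single library per number, and this change of sign was not tested. Dox minus PBS was 119 peaks within number 1, from passage 3, and -47 peaks within number 2, from passage 5. As a share of the list it was -0.388 percentage points within number 1 and 0.0440 within number 2. Block peaks with q of at most 0.05 differed by 12 and -12, and block peaks of 1 kb or more by 1 and -5, in the same order. The lists of number 1 differ more in length, with 46658 peaks for Dox and 11304 for PBS.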

How the results depend on the processing

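The mean excess of the block over the rest of chromosome 1 in density, width, rank and recurrence had the same direction under every alternative run, but single libraries did not always share it. With q of at most 0.05, PBS replicate 1 reversed in rank (-3.29 points) and recurrence (-9.90 percentage points), and with lists of equal length PBS replicate 2 reversed in width (-9.5 bp). The sign of the density difference in Dox replicate 1 depended on the setting. Its log2 ratio was -0.0979 over bins of 100 kb and -0.190 in the shortened window, but 0.0869 over bins of 1 Mb and 0.329 with full lengths. The log2 density ratio ran from 0.21, with the window shortened by 1 Mb on each side, to 0.84 with full lengths. The width difference ran from 25.5 to 117 bp, the difference in percentile from 10.4 to 23.7 points and that in recurrence from 6.20 to 13.4 percentage points. In a shortened window the parts left out counted as rest. An alternative added after the data were seen, without the first 1 Mb and the last 0.4 Mb, gave 0.22, 27.2 bp, 16.9 points and 6.50 percentage points. Leaving out 1 library at a time, the ranges were 0.30 to 0.43, 17.0 to 36.5 bp, 16.5 to 23.6 points and 8.27 to 10.6 percentage points. The Dox minus PBS difference in the share of the list ran from -0.392 to 0.0480 percentage points, and it turned positive without Dox replicate 1. In the other alternatives it stayed negative, from -2.56 with q of at most 0.05 to -0.0968. With the replicate number as a block, the paired difference was the same, -0.172 (exact sign-flip p = 1), and no call changed, since no test could pass 0.05. Of the 26 named sites, 13 had a peak in fewer lists at q of at most 0.05 and 3 with lists of equal length. Causes were not tested. Read depth is unknown, and its part in which sites were called was not tested.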
